A study of Mus musculus with 5 samples.

Results

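AUF1 shares its target sequences with other proteins that bind AU-rich elements (AREs), and the mRNAs of 9 genes of such proteins or of proteins that act on the same mRNAs were followed here: Elavl1, Zfp36, Zfp36l1, Zfp36l2, Khsrp, Zc3h12a, Tia1, Tial1 and Ybx1. They were chosen by name, with earlier results of these data known. Every probe set that the array annotation assigns to 1 of these symbols alone was taken on each array. This gave 31 of 45101 probe sets, and 9 of the 18194 genes that have a probe set of their own. A probe set is a group of short oligonucleotides against 1 transcript, and its signal is given on the log2 scale, so that a difference of 1 is a doubling.

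The arrays held RNA of mouse NIH/3T3 cells, an embryonic fibroblast line, carrying the mifepristone-inducible GeneSwitch vectors pBSwitch and pSLHGC-MYC-AUF1 p42 for AUF1 isoform p42 with an amino-terminal myc tag. Ribonucleoprotein immunoprecipitates (RNP-IPs) were collected on anti-c-myc agarose beads from cells labelled as induced with 1 nM mifepristone for 24 h (2 arrays) and from the same vector-carrying cells labelled as not induced (2 arrays), and total RNA of these cells was hybridized once, with no statement on their induction. The comparison asks which mRNAs are held on the beads together with myc-AUF1. The paper also describes background mRNA on the beads that resembled total RNA. An mRNA whose level in the cells changed during induction could differ between the RNP-IPs as well. No array is known to hold total RNA of induced cells, so retention and cellular level cannot be told apart here. All groups carried both vectors, and the methods describe selection of the infected cells in the presence of mifepristone, so the uninduced cells are not cells without the vector. The study describes the 2 induced RNP-IPs as independent, but nothing states that the RNP-IPs came from separate cultures, so p-values measure the spread between these arrays alone.

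AREs are stretches rich in adenosine and uridine in the 3' untranslated regions of many short-lived mRNAs, among them those of cytokines, growth factors and proto-oncogenes. Proteins that bind them either recruit enzymes that remove the poly(A) tail and degrade the mRNA, or shield the mRNA, or hold back its translation, and several compete for the same site. Many of these proteins are known to bind mRNAs of their own family, so that each is at once a regulator and a possible target. In these data only their mRNAs were measured, not the proteins.

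The gene of AUF1 itself, Hnrnpd, had lower signals in induced-labelled RNP-IPs than in uninduced-labelled RNP-IPs and total RNA. Its probe set of highest mean signal gave 6.72 and 7.39 in induced-labelled RNP-IPs, against 11.35 and 11.85 in uninduced-labelled RNP-IPs and 10.60 in total RNA (log2 difference -4.21, SE 0.46, adjusted p = 0.114 from limma). Its other 2 probe sets differed by -4.32 and -1.97 in the same direction. Whether these oligonucleotides also detect the vector's AUF1 mRNA was not tested. Il6, whose mRNA AUF1 is known to bind, was higher in induced-labelled RNP-IPs, with values given below. Groups are named as labelled. The identity of the cells fitted the label, since 10 of 10 fibroblast markers were at log2 5 or more on every array. Of 10 markers of other cell types 8 stayed under log2 5 on every array, the exceptions being Epcam (6.66 to 6.99) and Cd3e, and the summed signal of the 10 was 7.97 to 8.04 in induced-labelled RNP-IPs, 7.87 to 8.01 in uninduced-labelled RNP-IPs and 7.82 in total RNA.

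Arrays also differed within each group. The 5' control probe set of Gapdh had signals of 8.18 and 4.24 in induced-labelled RNP-IPs, 3.65 and 7.81 in uninduced-labelled RNP-IPs, and 6.93 in total RNA. That of Actb gave 11.35 and 7.17 in induced-labelled RNP-IPs, 5.83 and 9.66 in uninduced-labelled RNP-IPs and 8.50 in total RNA. At the 3' end Gapdh gave 11.90 and 9.71 in induced-labelled RNP-IPs, 9.70 and 12.11 in uninduced-labelled RNP-IPs and 12.32 in total RNA. Thus induced-labelled RNP-IP 2 and uninduced-labelled RNP-IP 1 were low at both ends, with the wider gap to the other RNP-IPs at the 5' end, and they are called below the arrays of low 5' signal. The signal at the 3' end exceeded that at the 5' end of Gapdh by 3.71 and 5.47 log2 units in induced-labelled RNP-IPs, 6.05 and 4.29 in uninduced-labelled RNP-IPs and 5.40 in total RNA, so by this measure total RNA was close to induced-labelled RNP-IP 2. Members that moved with this split are named below, and its part in their values was not tested.

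Of the 31 probe sets, 16 were under log2 5 on every array, with signals of 2.82 to 4.86, and are treated as too dim to order. The other 15 reached log2 5 on at least 1 array and covered 8 of the 9 genes, all but Zc3h12a. With induced-labelled RNP-IPs set against the 3 controls (uninduced-labelled RNP-IPs and total RNA) and a call at a fold of at least 3 with an adjusted p under 0.5, the threshold of the study and a lenient one at which many calls can be false, 0 of the 31 were called in either direction by limma, where 1.16% of all probe sets were called higher and 1.66% lower. At an unadjusted p under 0.05 there were 2 of 31, against 10.7% of all probe sets, and no probe set of the array reached an adjusted p under 0.05 in any of the 4 comparisons, whatever its fold. The median log2 difference was 0.08 over the 31 probe sets and 0.00 over all. Among probe sets that reached log2 5 it was 0.18 for the 15 of the members and -0.11 for the whole array. In 6 of 31 probe sets both induced-labelled arrays exceeded the 3 controls, and in 0 both were below them, against 11.0% and 10.6% of all probe sets. Of these 6, 2 were dim (1 each of Khsrp and Ybx1), which leaves 4 of the 15 brighter ones above and 0 below, against 16.4% and 22.5% of all probe sets that reached log2 5.

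**Figure D1:**
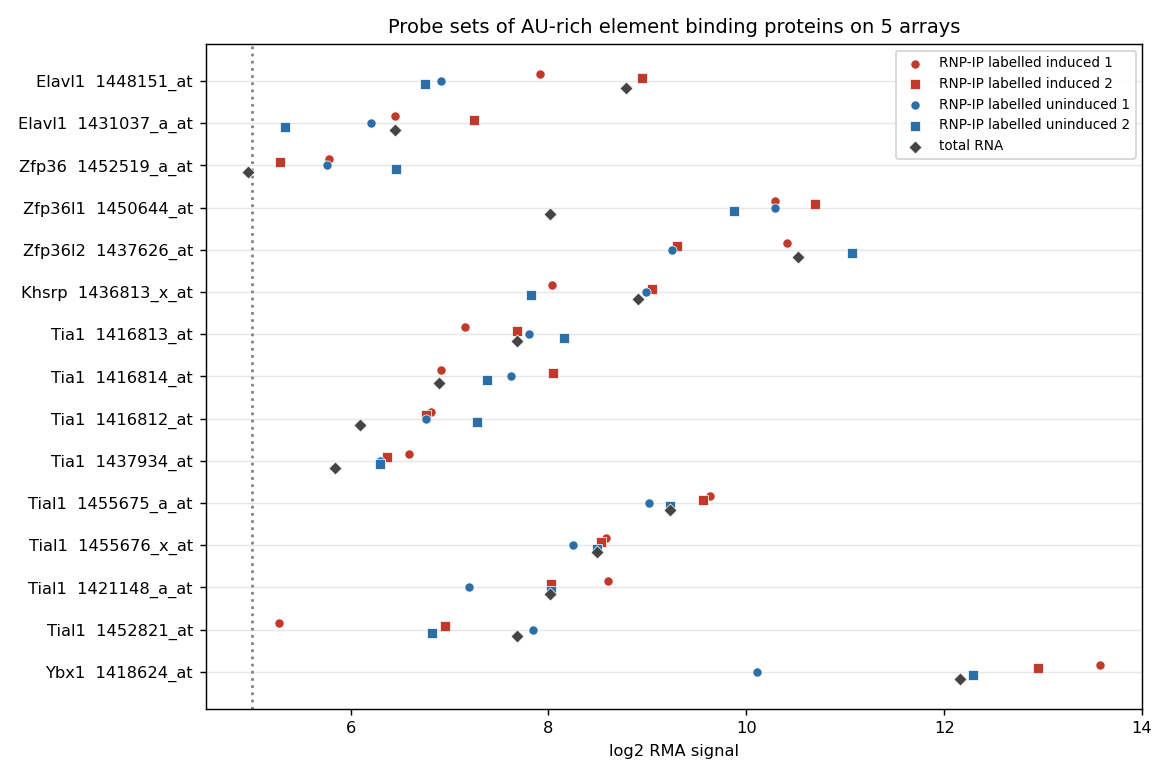
Log2 RMA signal (horizontal axis) of the 15 probe sets that reached log2 5 on at least 1 array, 1 row a probe set, with 1 point an array (red, induced-labelled RNP-IPs; blue, uninduced-labelled RNP-IPs; black, total RNA; circles, replicate 1; squares, replicate 2) and a dotted line at log2 5. Zfp36l1 stands out by a total RNA signal of 8.02 below all 4 RNP-IPs, and Ybx1 by 1 uninduced-labelled RNP-IP at 10.11.

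Elavl1 encodes HuR, the ubiquitous member of the Hu family, which binds U-rich and AU-rich sequences and is known for stabilising mRNAs, often opposite to AUF1. Its brightest probe set (1448151_at) had signals of 7.92 and 8.95 in induced-labelled RNP-IPs, against 6.91 and 6.75 in uninduced-labelled RNP-IPs and 8.79 in total RNA. Elavl1 was thus higher in induced-labelled RNP-IPs than in uninduced-labelled RNP-IPs, without overlap, but total RNA lay between the 2 induced-labelled arrays. Against all 3 controls the log2 difference was 0.95 (SE 0.81, adjusted p = 0.719, limma). The paper lists Elavl1 among its enriched mRNAs, whereas no Elavl1 probe set was called against the 3 controls here. The reason for this difference was not tested.

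Against the uninduced-labelled RNP-IPs alone, Elavl1 was called higher, by 1.60 on the log2 scale or 3.03-fold (SE 0.44, 95% interval 0.18 to 3.02, adjusted p = 0.386). It was the 1 member probe set of 31 called higher in this comparison, where 1.23% of all probe sets were called higher and 1.91% lower, and 0 members were called lower. At an unadjusted p under 0.05 there were 3 of 31, against 11.5% of all probe sets. The call lay at the edge of the threshold. It was lost without induced-labelled RNP-IP 2 (log2 difference 1.08), without uninduced-labelled RNP-IP 1 (1.68, adjusted p = 0.563) and without uninduced-labelled RNP-IP 2 (1.52, adjusted p = 0.572).

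Elavl1 was also called lower in the uninduced-labelled RNP-IPs, which both comparisons share, than in total RNA, by a log2 difference of -1.95 (SE 0.53, adjusted p = 0.419). It was the only member probe set called lower in this comparison, where 0.933% of all probe sets were called lower. This call was lost without uninduced-labelled RNP-IP 1 (-2.03, adjusted p = 0.549) and without uninduced-labelled RNP-IP 2 (-1.88, adjusted p = 0.520). In induced-labelled RNP-IPs the difference from total RNA was -0.35 (SE 0.53, 95% interval -2.10 to 1.39), which was not called.

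The second probe set of Elavl1 (1431037_a_at) had signals of 6.45 and 7.25 in induced-labelled RNP-IPs, 6.21 and 5.33 in uninduced-labelled RNP-IPs and 6.45 in total RNA. It was again higher in induced-labelled RNP-IPs than in uninduced-labelled RNP-IPs, by 1.08 (SE 0.50, adjusted p = 0.621), which did not pass. The remaining 4 probe sets of Elavl1 stayed at 2.82 to 4.59 on all arrays.

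The Zfp36 family comprises CCCH zinc finger proteins that bind the UAUUUAU core of AREs and recruit the CCR4-NOT deadenylase, so that bound mRNAs lose their poly(A) tail. Zfp36, tristetraprolin, is the inducible founder of the family and is best known for the decay of Tnf mRNA. Its single probe set gave low signals of 5.78 and 5.29 in induced-labelled RNP-IPs, against 5.76 and 6.46 in uninduced-labelled RNP-IPs and 4.96 in total RNA. The 4 RNP-IPs all lay above total RNA. The difference between uninduced-labelled RNP-IPs and total RNA was 1.14 (SE 0.44, adjusted p = 0.545), and that between induced-labelled RNP-IPs and the 3 controls -0.19 (SE 0.51, adjusted p = 0.908).

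Zfp36l1, also called BRF1, is a constitutive member of the family with the same decay activity. It had signals of 10.29 and 10.70 in induced-labelled RNP-IPs, 10.29 and 9.87 in uninduced-labelled RNP-IPs and 8.02 in total RNA (1450644_at). All 4 RNP-IPs were thus well above total RNA, whichever the label. Zfp36l1 was called higher than in total RNA both in induced-labelled RNP-IPs, by 2.47 or 5.56-fold (SE 0.30, 95% interval 1.49 to 3.46, adjusted p = 0.146), and in uninduced-labelled RNP-IPs, by 2.06 or 4.18-fold (SE 0.30, 95% interval 1.08 to 3.05, adjusted p = 0.259). These comparisons share the 1 total RNA array, whose own spread is not known.

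Zfp36l1 was the only member probe set called higher against total RNA in either group, where 1.53% of all probe sets were called higher in induced-labelled RNP-IPs and 0.891% in uninduced-labelled RNP-IPs. No member was called lower in induced-labelled RNP-IPs than in total RNA, against 3.07% of all probe sets. At an unadjusted p under 0.05 there were 3 of 31 members for induced-labelled RNP-IPs (13.9% of all probe sets) and 4 of 31 for uninduced-labelled RNP-IPs (10.9%). Both calls of Zfp36l1 held without each RNP-IP in turn, with log2 differences of 2.27 to 2.68 for induced-labelled RNP-IPs and 1.86 to 2.27 for uninduced-labelled RNP-IPs. Between the RNP-IPs the difference was 0.41 (SE 0.25, 95% interval -0.39 to 1.21, adjusted p = 0.721), so a 3-fold difference lay outside the interval. Its other probe set stayed at 3.09 to 3.11 on all arrays.

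Zfp36l2, or BRF2, is the third family member and acts in the same way. Its signals were 10.41 and 9.30 in induced-labelled RNP-IPs, against 9.25 and 11.07 in uninduced-labelled RNP-IPs and 10.52 in total RNA (1437626_at). The groups overlapped, and the 2 lowest values were those of the 2 arrays that were low at the 5' ends of Gapdh and Actb. The difference of -0.43 from the 3 controls had an SE of 0.71 and a 95% interval of -2.40 to 1.54 (adjusted p = 0.848). The other 2 probe sets were dim, at 3.45 to 4.86.

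Khsrp encodes KSRP, a KH-domain protein that binds AREs and promotes decay through the exosome and poly(A)-specific ribonuclease. Its signals ran opposite to those of Zfp36l2, with 8.03 and 9.04 in induced-labelled RNP-IPs, 8.99 and 7.82 in uninduced-labelled RNP-IPs and 8.90 in total RNA (1436813_x_at). Here the arrays low at the 5' control probe sets were the 2 highest. The difference from the 3 controls was -0.03 (SE 0.54, 95% interval -1.53 to 1.46, adjusted p = 0.996). Its 2 dim probe sets stayed at 2.91 to 3.71.

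Zc3h12a encodes Regnase-1, an endonuclease with a CCCH zinc finger that cleaves inflammatory mRNAs at stem-loops rather than at AREs. Both of its probe sets were dim on all arrays, at 3.56 to 3.77 in induced-labelled RNP-IPs, 3.56 to 3.74 in uninduced-labelled RNP-IPs and 3.45 to 3.74 in total RNA. No difference could be measured at these signals.

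Tia1 and its paralog Tial1 (TIAR) have RNA recognition motifs for U-rich and AU-rich sequences. They repress translation of bound mRNAs, take part in splicing in the nucleus and assemble stress granules. Tia1 had 4 probe sets above log2 5. The brightest (1416813_at) had 7.16 and 7.68 in induced-labelled RNP-IPs, against 7.80 and 8.16 in uninduced-labelled RNP-IPs and 7.68 in total RNA, a difference from the 3 controls of -0.46 (SE 0.24, adjusted p = 0.662).

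A neighbouring Tia1 probe set (1416814_at) gave 6.91 and 8.04 in induced-labelled RNP-IPs, 7.62 and 7.38 in uninduced-labelled RNP-IPs and 6.89 in total RNA, with a difference of 0.18 from the controls. The Tia1 probe set 1416812_at had 6.81 and 6.76 in induced-labelled RNP-IPs, 6.76 and 7.27 in uninduced-labelled RNP-IPs and 6.10 in total RNA. The fourth (1437934_at) had 6.59 and 6.37 in induced-labelled RNP-IPs, an identical 6.30 on both uninduced-labelled arrays and 5.84 in total RNA. On these 3, but not on the brightest, total RNA was below all RNP-IPs, on 1416814_at only just. For 1437934_at the difference from total RNA was 0.63 in induced-labelled RNP-IPs (SE 0.12, adjusted p = 0.232) and 0.45 in uninduced-labelled RNP-IPs (SE 0.12, adjusted p = 0.414), both under 3-fold and so not called. The other 2 probe sets of Tia1 were dim, at 3.10 to 3.50.

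Tial1 had the smallest unadjusted p against the 3 controls among the 15 brighter probe sets. Its probe set 1455675_a_at had signals of 9.63 and 9.56 in induced-labelled RNP-IPs, against 9.02 and 9.23 in uninduced-labelled RNP-IPs and 9.23 in total RNA. The 2 groups did not overlap, and the difference of 0.44 or 1.36-fold had an SE of 0.09 (95% interval 0.19 to 0.69, unadjusted p = 0.00868, adjusted p = 0.242, limma). It was small, since the whole interval lay under a 3-fold change. Uninduced-labelled RNP-IP 2 and total RNA had the identical value of 9.2267, so these arrays added no spread between them to the SE.

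Other Tial1 probe sets were not alike. On 1455676_x_at the signals were 8.58 and 8.53 in induced-labelled RNP-IPs, 8.25 and 8.49 in uninduced-labelled RNP-IPs and 8.49 in total RNA, a difference of 0.14 (SE 0.10). On 1421148_a_at they were 8.60 and 8.03 in induced-labelled RNP-IPs, 7.20 and 8.03 in uninduced-labelled RNP-IPs and 8.01 in total RNA, a difference of 0.57 (SE 0.36). The probe set 1452821_at ran the other way, with 5.28 and 6.95 in induced-labelled RNP-IPs, 7.84 and 6.82 in uninduced-labelled RNP-IPs and 7.68 in total RNA. Its difference of -1.33 (SE 0.65, adjusted p = 0.637) was not called. It was -0.50 without induced-labelled RNP-IP 1, and -2.17 and called lower without induced-labelled RNP-IP 2. The fifth probe set of Tial1 was dim, at 3.32 to 3.62. Which exons or transcript ends these probe sets cover was not used here.

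Ybx1 encodes YB-1, a cold shock domain protein that coats mRNAs, stabilises many of them and limits their translation. Its probe set 1418624_at had signals of 13.57 and 12.95 in induced-labelled RNP-IPs, against 10.11 and 12.29 in uninduced-labelled RNP-IPs and 12.16 in total RNA. Both induced-labelled arrays exceeded the 3 controls. Of the controls, uninduced-labelled RNP-IP 1, low at the 5' ends of Gapdh and Actb, was far below the others.

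Ybx1 was the only member with a mean difference from the 3 controls above 3-fold, 1.74 or 3.34-fold, but its SE of 0.82 left a 95% interval of -0.54 to 4.02 (adjusted p = 0.622) and it was not called. Without uninduced-labelled RNP-IP 1 the difference was 1.04. Without both arrays of low 5' signal it was 1.35 (adjusted p = 0.342). When only probe sets with a mean log2 of at least 6 were fitted, Ybx1 was called higher (adjusted p = 0.204), as were 3.37% of these probe sets. Against the uninduced-labelled RNP-IPs alone it was 2.06 (SE 0.94, adjusted p = 0.618), 0.97 without uninduced-labelled RNP-IP 1, and 3.15 and called higher without uninduced-labelled RNP-IP 2 (adjusted p = 0.309). Against total RNA, uninduced-labelled RNP-IPs differed by -0.96 (SE 1.16), which became -2.04 and called lower without uninduced-labelled RNP-IP 2. A pseudogene of Ybx1 is annotated in the mouse genome, and whether it shares these oligonucleotides was not tested. The dim probe set 1438064_at of Ybx1 gave 4.11 and 4.02 in induced-labelled RNP-IPs, against 3.29 and 3.40 in uninduced-labelled RNP-IPs and 3.61 in total RNA, all under log2 5, and 1430720_at stayed at 3.12 to 3.15.

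**Figure D2:**
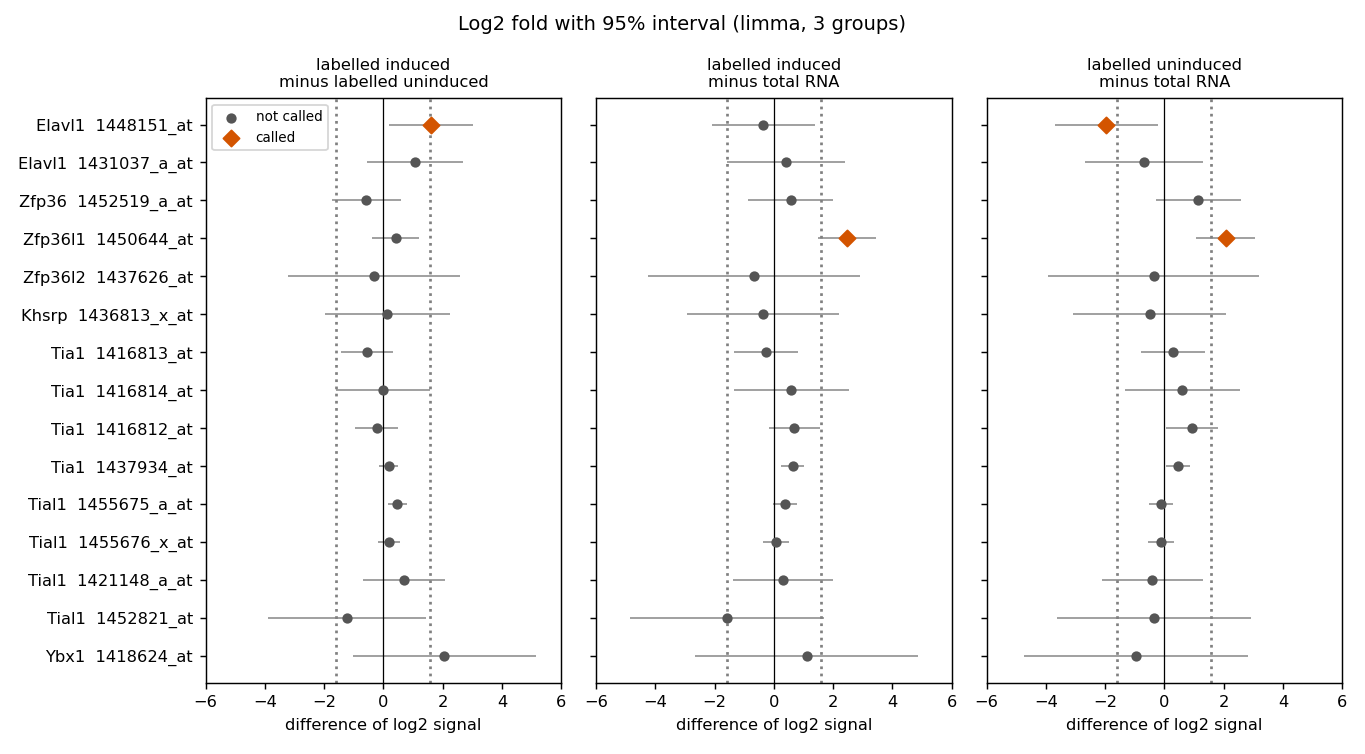
Difference of log2 signal with its 95% interval from limma for the 15 probe sets that reached log2 5, between induced-labelled and uninduced-labelled RNP-IPs (left), induced-labelled RNP-IPs and total RNA (middle), and uninduced-labelled RNP-IPs and total RNA (right), with dotted lines at a 3-fold change and orange diamonds for called probe sets. Of these, Elavl1 was called at left (1.60) and right (-1.95), and Zfp36l1 in the middle (2.47) and right (2.06).

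The arrays low at the 5' control probe sets were both above the other 3 arrays in 3 of the 15 brighter member probe sets (Zfp36l1, Khsrp and Tia1 1416814_at) and both below them in 1 (Zfp36l2), against 6.67% and 12.2% of all probe sets that reached log2 5. For Zfp36l1 this held only just, at 10.292 in uninduced-labelled RNP-IP 1 against 10.291 in induced-labelled RNP-IP 1.

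**Figure D3:**
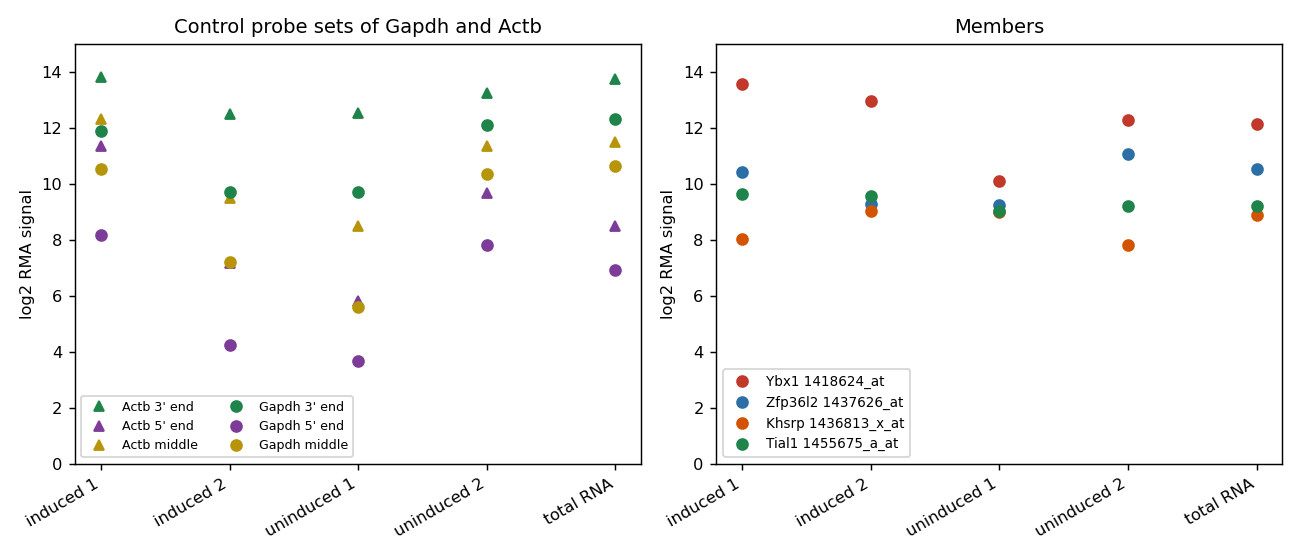
Log2 RMA signal on each of the 5 arrays (horizontal axis) of the control probe sets at the 3' end, middle and 5' end of Gapdh and Actb (left) and of 4 members (right). The 5' signal of Gapdh was 4.24 in induced-labelled RNP-IP 2 and 3.65 in uninduced-labelled RNP-IP 1, and Zfp36l2 had its lowest values, 9.30 and 9.25, on the same arrays.

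Other genes of the same machinery were described by 1 probe set each, that of the highest mean signal. Over all 18194 genes, 1.32% were called higher and 2.36% lower in induced-labelled RNP-IPs against the 3 controls. Of 9 measured paralogs of the members 0 were called higher and 2 lower, with a median log2 difference of -0.10. Fubp1, a KH-domain relative of Khsrp, had 4.74 and 5.76 in induced-labelled RNP-IPs, against 8.52 and 8.54 in uninduced-labelled RNP-IPs and 7.58 in total RNA (difference -2.96, SE 0.49, adjusted p = 0.178). Its other probe sets differed by 0.45, -1.25 and -0.14 and were not called. Zc3h12c, a relative of Zc3h12a, had 4.19 and 4.63 in induced-labelled RNP-IPs, both under log2 5, against 7.86 and 7.28 in uninduced-labelled RNP-IPs and 5.96 in total RNA (difference -2.62, SE 0.65, adjusted p = 0.291). Its call was lost without induced-labelled RNP-IP 1 (-2.40) and without uninduced-labelled RNP-IP 2 (-2.50).

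Among 20 measured RNA-binding proteins of AU-rich or labile mRNAs outside these families, 0 were higher and 2 lower, with a median of 0.06. They were Hnrnpd and Hnrnpa0, an hnRNP known to bind AREs of inflammatory mRNAs, which had 9.18 and 9.64 in induced-labelled RNP-IPs, 10.84 and 11.08 in uninduced-labelled RNP-IPs and 11.13 in total RNA (difference -1.61, SE 0.19, adjusted p = 0.118). Without induced-labelled RNP-IP 1 (-1.37) or uninduced-labelled RNP-IP 2 (-1.58) Hnrnpa0 fell short of 3-fold. Of 28 decay enzymes 0 were higher and 2 lower, with a median of -0.36. Cnot7, which the paper lists as enriched, differed by -1.07 (SE 0.78) on its brightest probe set and was not called. Dis3, a catalytic subunit of the exosome, differed by -2.33 (SE 0.72, adjusted p = 0.387) and Parn, the poly(A)-specific ribonuclease, by -1.81 (SE 0.51, adjusted p = 0.342). Both calls were lost without either of the uninduced-labelled RNP-IPs (-2.59 and -2.67 for Dis3, -1.70 and -1.64 for Parn), that of Dis3 also without induced-labelled RNP-IP 1 (-1.92) and that of Parn without induced-labelled RNP-IP 2 (-1.21).

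Of 30 kinases, phosphatases, chaperones and import receptors that act on the members, 1 was higher and 1 lower, with a median of -0.15. Map2k6, an activator of the p38 kinases, had 6.77 and 6.20 in induced-labelled RNP-IPs, against 5.09 and 4.70 in uninduced-labelled RNP-IPs and 4.60 in total RNA (difference 1.69, SE 0.25, adjusted p = 0.157). Tnpo1, a nuclear import receptor, was lower on its brightest probe set (-1.67, SE 0.24, adjusted p = 0.153) and higher on 1455043_at, which had 8.95 and 9.16 in induced-labelled RNP-IPs, against 6.64 and 6.19 in uninduced-labelled RNP-IPs and 7.04 in total RNA (2.43, SE 0.29, adjusted p = 0.120). The direction for Tnpo1 thus depended on the probe set. The calls of Map2k6 and of the brightest Tnpo1 probe set were lost without induced-labelled RNP-IP 1 (1.40 and -1.39). Of 19 stress granule partners 0 were higher and 1 lower, with a median of 0.17. That was Caprin1, a translation regulator of stress granules, at -1.99 (SE 0.66, adjusted p = 0.424), whereas its other probe sets differed by -1.14 to 0.88 and were not called. The call of Caprin1 was lost without induced-labelled RNP-IP 1 (-1.29) and without each uninduced-labelled RNP-IP (-2.03 and -2.34). G3bp2, also listed as enriched by the paper, differed by 0.70 (SE 0.46) on its brightest probe set and was not called. The other probe sets of Cnot7 and G3bp2 are not given here.

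Of 38 measured ARE-containing mRNAs, 2 were higher and 2 lower, with a median of -0.08. Il6, the cytokine interleukin 6, had 6.24 and 7.90 in induced-labelled RNP-IPs, against 5.60 and 3.84 in uninduced-labelled RNP-IPs and 4.15 in total RNA (difference 2.54, SE 0.81, adjusted p = 0.408). Mllt11 had 9.58 and 10.67 in induced-labelled RNP-IPs, 8.57 and 8.04 in uninduced-labelled RNP-IPs and 8.34 in total RNA (1.81, SE 0.39, adjusted p = 0.254). Both calls were lost without induced-labelled RNP-IP 2 (1.71 for Il6 and 1.26 for Mllt11) and without uninduced-labelled RNP-IP 2 (2.19 and 1.67). Ptgs2, the inducible cyclooxygenase, was lower on its brightest probe set (-2.44, SE 0.86, adjusted p = 0.456) and higher on another (2.32, SE 0.61, adjusted p = 0.314). The second lower gene, Dusp6 (-1.60, SE 0.41, adjusted p = 0.303), a phosphatase of ERK kinases, was named after its values were seen. The lower call of Ptgs2 was lost without any 1 of the 4 RNP-IPs (-2.17 to -2.86), and that of Dusp6 without induced-labelled RNP-IP 1 (-1.42) or uninduced-labelled RNP-IP 2 (-1.39).

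**Figure D4:**
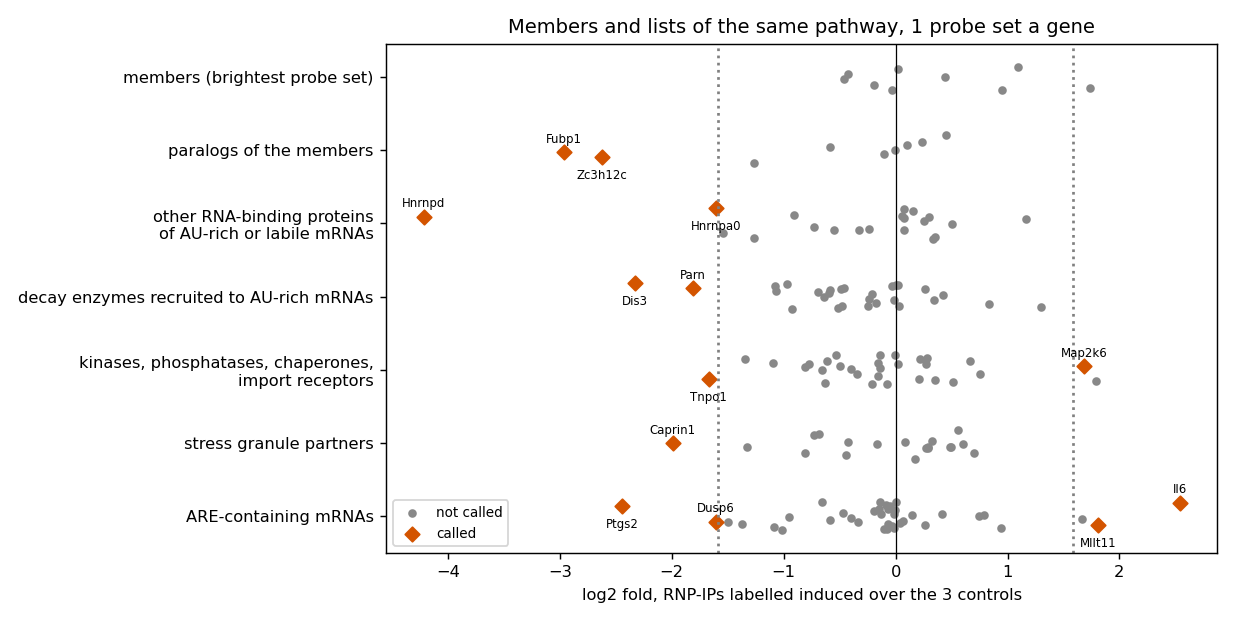
Log2 difference between induced-labelled RNP-IPs and the 3 controls (horizontal axis) for the 9 members and the genes of 6 lists, 1 point a gene on its brightest probe set, with dotted lines at a 3-fold change and named orange diamonds for called genes. No member was called, and the called genes of the lists lay between -4.21 (Hnrnpd) and 2.54 (Il6).

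The 3 members with the largest difference from the controls on their brightest probe set were compared with 6401 genes of mean log2 of at least 6 by the root mean square difference of their 5 array values, each gene centred on its own mean. Closest to Ybx1 were Psap (0.230), Nedd4l (0.238) and Ulk1 (0.253), all with their lowest value in uninduced-labelled RNP-IP 1. Closest to Zfp36l1 were Zfp516 (0.121), Ubxn2b (0.152) and Nsun6 (0.177), which were lowest in total RNA, as Zfp36l1 was. Closest to Elavl1 were Slc16a1 (0.184), Noct (0.203) and Tiparp (0.211), all lower in both uninduced-labelled RNP-IPs than on the other 3 arrays. The likeness was taken over 5 arrays and is a description.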

How the data were processed

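Two-cycle labelling was used by the authors to amplify the RNA. They hybridized it to Affymetrix GeneChip Mouse 430 2.0 arrays and deposited log2 signals normalized by RMA, a method that the submitters' processing notes also name (no version named). That the scale is log2 was judged by the range of 2.32 to 14.86. No genome coordinates are given. With so few arrays, their number sets the precision. Identical values on 2 or more arrays occurred in 55.1% of probe sets and in 19 of 31 members.

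All 5 columns and all 45101 probe sets, 64 array controls among them, entered lmFit and eBayes of limma 3.58.1 (R 4.3.3), with Benjamini and Hochberg adjustment across the whole array. The first comparison set 2 induced-labelled arrays against the 3 controls, as the methods do (3 residual degrees of freedom, 0.962 prior). A fit with 3 groups (2 residual, 0.877 prior) gave the others, with the 1 total RNA array taken to vary as the RNP-IPs do. The fits were tested on simulated data. Calls needed a 3-fold difference and an adjusted p below 0.5, and dim meant under log2 5 on every array. Gene names came from the platform annotation, older symbols being updated through the RefSeq gene table, with 34958 probe sets assigned to 1 gene, 932 to several and 9211 to none. Intervals are 95% intervals of the fit.

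The members and the 6 gene lists were chosen with earlier results of these data known. Named were all members, Hnrnpd, Gapdh and Actb, up to 3 called genes of each list with the largest difference, and the 3 genes most like each of 3 members. Alternatives were median centring, cyclic loess, a filter at a mean log2 of 6, an adjusted p under 0.05, leaving out each RNP-IP or total RNA, the replicate number as a block, and for the lists the probe set with the largest difference. A crossed block and leaving out the 2 arrays low at the 5' end were added after seeing the data.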

Additional observations from a re-analysis of the deposited data

How the results depend on the processing

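The design limits what can be seen, with 2 arrays a group, 1 total RNA array and no probe set of the array at an adjusted p under 0.05 in any of the 4 comparisons. Over 60 differences of single member probe sets under all alternatives, 509 of 566 values kept direction and call, 10 lost a call, 10 gained one, 37 changed sign without a call, and 0 called values reversed. For members against the 3 controls, the count called higher was 0, but 1 with the filter at a mean log2 of 6 (Ybx1) and 1 without total RNA (Elavl1). The count called lower was 0, and 0 to 1 without single arrays. Against uninduced-labelled RNP-IPs the 1 call became 2 with the filter and 0 at an adjusted p under 0.05, and 0 to 1 without single arrays. Against total RNA the calls for induced-labelled RNP-IPs (1 higher) and uninduced-labelled RNP-IPs (1 higher and 1 lower) became 0 at an adjusted p under 0.05, and the counts called lower were 0 to 1 without single arrays in both. The causes were not tested.

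Same-numbered RNP-IPs deviated in opposite directions (correlation of deviations -0.50 over all probe sets, -0.67 over those of mean log2 of at least 6). Induced-labelled RNP-IP 1 thus tended to move with uninduced-labelled RNP-IP 2. What the replicate number stands for is not stated, and the cause was not tested. Total RNA is a block of its own and adds nothing to a blocked difference, so each block compares induced-labelled with uninduced-labelled RNP-IPs alone. With the replicate block 0 members were called higher against uninduced-labelled RNP-IPs, as Elavl1 lost its call (adjusted p = 0.627). With the replicate block the lists gave 1 lower among other RNA-binding proteins, 0 lower among decay enzymes, among kinases and their group and among stress granule partners, and 0 higher and 1 lower among ARE-containing mRNAs. With a crossed replicate block, added after seeing the data, 2 members were called higher, Elavl1 and Ybx1. The lists then gave 1 lower (other RNA-binding proteins), 2 higher (kinases and their group) and 1 lower (ARE-containing mRNAs).

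Counts of the lists moved as follows. For paralogs the 2 lower became 1 with the filter and 1 without the 2 arrays of low 5' signal, and 1 to 2 without single arrays. For other RNA-binding proteins the 2 lower became 1 with cyclic loess, 1 without total RNA, 5 with the probe set of the largest difference and 4 without the arrays of low 5' signal, and 1 to 3 without single arrays. For decay enzymes there was 1 higher with the probe set of the largest difference, 1 lower without the arrays of low 5' signal, and 0 to 4 lower without single arrays. For kinases and their group 2 were higher with median centring, cyclic loess, the probe set of the largest difference or without the arrays of low 5' signal, and without single arrays 0 to 2 were higher and 0 to 1 lower. For stress granule partners 1 was higher with the probe set of the largest difference, 0 were lower without total RNA or without the arrays of low 5' signal, and 0 to 1 without single arrays. For ARE-containing mRNAs 1 was lower with cyclic loess, with the filter, without total RNA or without the arrays of low 5' signal, 1 was higher without total RNA or without the arrays of low 5' signal, and without single arrays 0 to 2 were higher and 0 to 2 lower.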
